A study of Mus musculus with 26 samples.

Results

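Cdh17, Aqp8, Kcne2, Hnf4a, Foxa1, Foxa2, Foxa3 and Lgals4, 8 genes known from gut, stomach and other foregut epithelium, were followed in murine EML4-ALK lung cancer lines. They were taken from the 55391 genes of the deposited count table by symbol, ignoring case, and all 8 were found. Cdh17, Aqp8 and Kcne2 were chosen because their alectinib effects depended on the line, so their drug ratios and levels are given as a description without a test. Hnf4a, Foxa1, Foxa2, Foxa3 and Lgals4 were not chosen on those ratios and were tested. The cells were EA1, EA2 and EA3, each a line from a C57BL/6 mouse whose tumor carried the EML4-ALK fusion made with adenoviral Cas9 and guide RNAs. Each line was cultured in RPMI-1640 with fetal bovine serum and either 100 nM alectinib, an ALK inhibitor, or its vehicle 0.1% DMSO. On each of days 1, 2, 3 and 5, 1 RNA library was made for every combination of line and treatment, 24 in all, and the 4 days served as replicates (n = 4). Nothing in the labels says that the days were separate cultures, so p-values measure the spread between these libraries. Each line stands for 1 tumor, so a difference between lines cannot be told apart from a difference between tumors or mice.

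HNF4A is a nuclear receptor that drives transcription in liver, intestine and other endoderm organs. FOXA1, FOXA2 and FOXA3 are forkhead factors that bind closed chromatin and open it, and FOXA1 and FOXA2 act in both foregut and lung development. CDH17 (liver-intestine cadherin) is an adhesion protein of intestinal epithelium, AQP8 is a water and hydrogen peroxide channel of colon and other glands, KCNE2 is a potassium channel subunit that pairs with KCNQ1 in acid-secreting parietal cells, and LGALS4 is a galectin of the gut lining. In lung adenocarcinoma, loss of the lung factor NKX2-1 is known to go with expression of such gut and stomach genes.

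In the mm10 annotation (GENCODE M21), Cdh17 lies at chr4:11758147-11817895 on the plus strand, Aqp8 at chr7:123462291-123468004 (plus), Kcne2 at chr16:92292389-92298129 (plus) and Hnf4a at chr2:163506808-163572910 (plus). Foxa1 lies at chr12:57540628-57546916 (minus), Foxa2 at chr2:148042877-148046969 (minus), Foxa3 at chr7:19013284-19023538 (minus) and Lgals4 at chr7:28833854-28841708 (plus). None of the 8 shares exon bases with another gene. RefSeq promoter windows (GRCm38.p6, from 250 bases before to 50 bases after a start site) were given for 7 of the 8, and Cdh17 had no entry. They were searched on both strands for a FOXA core (TGTTTAC), an HNF4 core (CAAAGTC), a CDX core (TTTATNG, which covers TTTATGG) and a TATA box (TATAAA), the last of which can overlap the reverse of the CDX core. Of 32851 promoter windows in the reference, 3.65% held the FOXA core, 4.44% the HNF4 core, 10.9% the CDX core, 2.75% TTTATGG and 13.6% the TATA box. The windows of the genes with the widest drug ratios (Aqp8, Kcne2) and of the forkhead genes that passed a test (Foxa1, Foxa2) are shown from 5′ to 3′ on the strand of the gene, with motif matches in capitals.
Aqp8, chr7:123462044-123462343, plus strand: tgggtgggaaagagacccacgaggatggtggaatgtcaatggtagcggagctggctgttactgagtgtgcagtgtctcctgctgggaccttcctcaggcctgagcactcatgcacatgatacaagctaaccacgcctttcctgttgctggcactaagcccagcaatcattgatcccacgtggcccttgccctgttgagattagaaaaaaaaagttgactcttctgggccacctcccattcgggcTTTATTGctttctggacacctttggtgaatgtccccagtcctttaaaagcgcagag
Kcne2, chr16:92292139-92292438, plus strand: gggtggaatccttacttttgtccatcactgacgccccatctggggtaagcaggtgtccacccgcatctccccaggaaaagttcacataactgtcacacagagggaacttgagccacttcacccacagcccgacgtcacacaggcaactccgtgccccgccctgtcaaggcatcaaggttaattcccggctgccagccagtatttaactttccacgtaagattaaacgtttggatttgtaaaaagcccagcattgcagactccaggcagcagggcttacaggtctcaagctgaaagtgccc
Foxa1, chr12:57546062-57546361, minus strand: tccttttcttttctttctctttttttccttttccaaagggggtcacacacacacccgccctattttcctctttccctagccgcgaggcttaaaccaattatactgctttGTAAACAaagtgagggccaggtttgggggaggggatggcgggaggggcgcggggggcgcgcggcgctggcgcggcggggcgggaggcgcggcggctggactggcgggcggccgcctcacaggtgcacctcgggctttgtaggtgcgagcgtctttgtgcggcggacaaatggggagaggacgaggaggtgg
Foxa2, chr2:148046920-148047219, minus strand: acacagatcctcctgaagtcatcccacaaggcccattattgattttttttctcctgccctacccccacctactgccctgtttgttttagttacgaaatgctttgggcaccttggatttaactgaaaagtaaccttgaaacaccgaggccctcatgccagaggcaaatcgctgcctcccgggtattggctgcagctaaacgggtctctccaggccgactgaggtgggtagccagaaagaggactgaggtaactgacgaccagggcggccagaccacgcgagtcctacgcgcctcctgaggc
The Aqp8 window held a CDX core from base -6 before the start site. The Foxa1 window held a FOXA core, read on the opposite strand, from base -141. The Kcne2 and Foxa2 windows shown held none of these letter strings. Of the windows not shown, that of Foxa3 held a reverse CDX core from base -37 that overlapped a TATA box from base -36, a downstream start of Foxa2 had a TATA box on the opposite strand, and those of Hnf4a and Lgals4 held none. A match is a description of the letters and was not tested for binding.

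Library totals ran from 5780062 to 11732401 counts over the 24 libraries. All 8 genes were among the 14264 that passed the filter on low counts over the 24 libraries. Kcne2 and Foxa3 did not pass it in DMSO libraries alone, and Aqp8 and Foxa3 did not in alectinib libraries alone. Of 12 alveolar markers, the lung factor gene Nkx2-1 reached at most 7 counts in a library, the surfactant gene Sftpc at most 1 and Sftpa1 was at 0 in all 24. Others were present, among them Abca3, a lipid transporter of type II cells (42.0, 5.99 and 70.0 CPM in DMSO for EA1, EA2 and EA3), and Lpcat1, a lipid enzyme (37.9, 80.9 and 65.6 CPM). Ager reached 142 counts and Sftpd 80. The 12 together summed to 66.0-96.8 CPM in EA1 DMSO libraries and 87.0-98.7 CPM with alectinib, against 79.8-98.4 and 63.3-75.9 CPM for EA2, and 109-160 and 171-270 CPM for EA3. Of the epithelial markers, Epcam was low in DMSO in EA1 (1.41 ± 1.42 CPM, counts scaled to library size, SD) and EA2 (0.488 ± 0.144) against 135 ± 61.0 in EA3, whereas Cdh1 averaged 573, 64.9 and 660 CPM. Of 8 fibroblast markers, 6 were tested, and alectinib raised 5 in EA1, 5 in EA3 and 3 in EA2 (of all genes, 33.6%, 32.6% and 24.4% were called in either direction). Their summed level was 9.78-46.4 CPM in EA1 DMSO libraries and 125-476 CPM in those with alectinib, against 56.8-72.1 and 114-236 CPM for EA2, and 10.4-20.97 and 83.6-271 CPM for EA3, while the fibroblast marker Thy1 reached at most 2 counts. In EA3 with alectinib, Col1a1 had 76.7, 127, 147 and 179 CPM on days 1, 2, 3 and 5. Col3a1 (0.364, 0.970, 0.189 and 23.9 CPM), Dcn (0.728, 3.77, 2.92 and 47.9 CPM) and Pdgfrb (0, 0.539, 0.283 and 6.65 CPM) were far highest on day 5. Of 8 leukocyte markers, the pan-leukocyte gene Ptprc reached at most 4 counts, and Adgre1 and Cd3e at most 1, while Cd68, a lysosomal protein abundant in macrophages, averaged 3.98, 40.1 and 38.6 CPM in DMSO and Csf1r reached 73 counts. Cd68 and Csf1r were the 2 tested, and neither was called with alectinib. The leukocyte markers summed to 1.76-9.88 CPM in EA1 DMSO libraries and 1.92-6.61 CPM with alectinib, against 10.8-88.3 and 12.1-51.8 CPM for EA2, and 6.24-95.7 and 9.65-28.6 CPM for EA3. Of 3 tested endothelial markers 1 was lower in EA2, of 4 tested alveolar markers 2 were higher in EA3, and of 8 epithelial markers 1 was higher in each line and 1, 2 and 1 were lower. The part of these markers in the results below was not tested. In bulk RNA, fewer cells of a type and less RNA per cell cannot be told apart. The 2 libraries labelled EA3 day 7 correlated across 14264 genes more with the EA2 mean of their treatment (Pearson r 0.967 in DMSO and 0.986 in alectinib) than with EA3 (0.887 and 0.876), so they were left out of the results and their effect is given where it matters.

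In untreated cultures, EA1 and EA3 held most of these transcripts and EA2 held few beside Foxa1. Per kilobase of exon, Cdh17 was the highest member in EA1 DMSO at 139 ± 19.6 CPM per kb (SD, n = 4), Aqp8 in EA3 at 39.4 ± 13.02 CPM per kb, and Foxa1 in EA2 at 37.6 ± 2.16 CPM per kb. In EA3, Foxa1 (33.2 ± 6.27 CPM per kb), Cdh17 (24.5 ± 4.73) and Foxa2 (17.3 ± 5.12) followed Aqp8, and the mean ± SD of each overlapped that of its neighbour in this order. In EA1, Hnf4a (29.8 ± 20.7), Foxa1 (25.9 ± 6.503), Aqp8 (12.7 ± 5.88) and Foxa2 (10.0 ± 3.32 CPM per kb) followed Cdh17. Kcne2 was near 0 in DMSO in every line, and Foxa3 stayed at or below 0.514 CPM per kb on average.

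**Figure D1:**
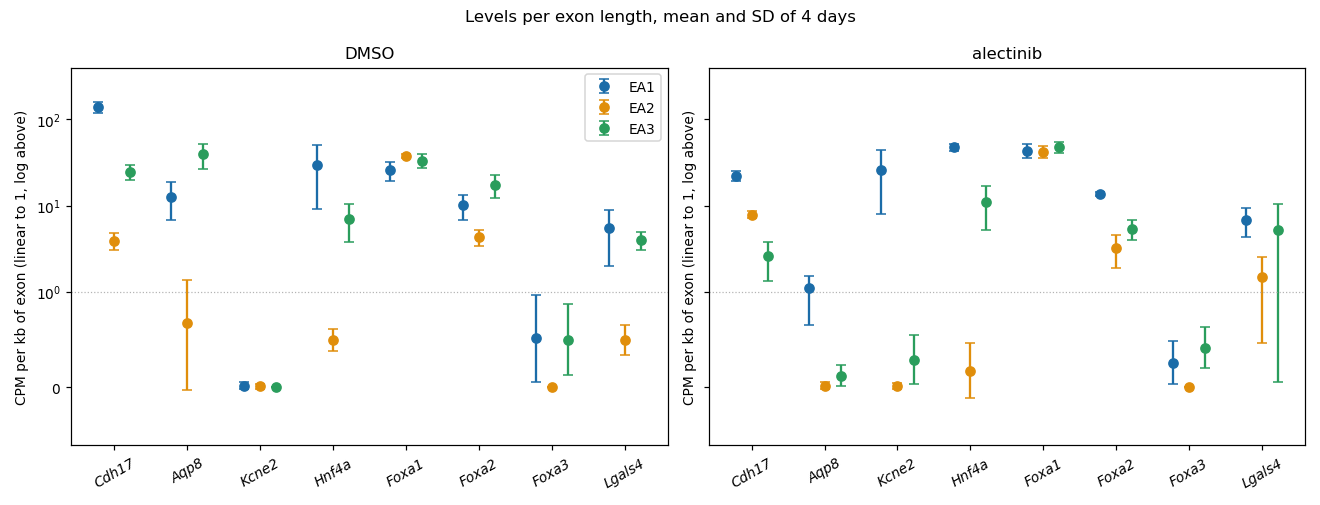
Levels of the 8 genes in CPM per kilobase of exon, as mean and SD of 4 days, in DMSO (left) and alectinib (right), with the axis linear up to 1 and logarithmic above. Cdh17 averaged 139 CPM per kb in EA1 DMSO and 22.1 in EA1 alectinib, and Foxa1 lay between 25.9 and 47.6 in all 6 groups.

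The difference between untreated lines was tested for the 4 members that passed the filter and were not chosen on the drug ratio, and 3 passed (edgeR's quasi-likelihood test with 2 degrees of freedom), where 39.7% of all 12886 genes tested passed. Between pairs of lines, 29.3% of genes passed for EA2 against EA1, 22.2% for EA3 against EA1 and 25.6% for EA3 against EA2. Hnf4a differed most. Its DMSO counts on days 1, 2, 3 and 5 were 2394, 1636, 479 and 516 for EA1, 28, 21, 18 and 26 for EA2, and 601, 291, 146 and 155 for EA3. Every EA2 library lay far below every library of the other lines, and EA1 and EA3 overlapped. By the edgeR test, the log2 level in EA2 was lower than in EA1 (difference -5.87, standard error 0.57, adjusted p = 4.21e-06), and that in EA3 was also lower than in EA1 (-2.05, standard error 0.47, adjusted p = 0.00622, or 0.072 when day 2 was left out). Lgals4 in DMSO had 107, 205, 45 and 72 counts (EA1), 19, 6, 10 and 12 (EA2), and 120, 92, 49 and 51 (EA3). EA2 again lay below the others without overlap, by -3.38 log2 units against EA1 (standard error 0.46, adjusted p = 9.55e-05 by the edgeR test, and -2.73 without day 2), while EA3 and EA1 differed by -0.40 (95% confidence interval -1.27 to 0.48). For Foxa2, the DMSO means were 23.8 ± 7.87 (EA1), 10.1 ± 2.10 (EA2) and 40.9 ± 12.1 CPM (EA3). EA2 was lower than EA3 (EA3 minus EA2 2.01 log2 units, adjusted p = 0.000204) and than EA1 (-1.19, adjusted p = 0.00726, edgeR), and the latter call was lost without day 1 (adjusted p = 0.0527) or day 2 (0.0913). EA3 and EA1 differed by 0.82 (interval 0.21 to 1.43, adjusted p = 0.0544 by the edgeR test), which passed without day 1 (0.0221). Foxa1 was the most even member, with DMSO means of 86.3 ± 21.6, 125 ± 7.17 and 111 ± 20.8 CPM in the order EA1, EA2, EA3 (adjusted p = 0.0911 between lines by the edgeR test). With day as a replicate block this p was 0.0383, and with library size alone as the scaling 0.0436. Foxa3 was at 0 in all 8 EA2 libraries, for which 3 counts over the group give a limit of 0.0423 CPM, and had 2 to 18 counts per library in EA1 DMSO and 3 to 17 in EA3 DMSO.

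Cdh17 went in opposite directions with alectinib. In EA1 it had 6593, 4968, 5715 and 4004 counts in DMSO on days 1, 2, 3 and 5 and 1137, 900, 930 and 982 counts with alectinib. In EA3 it had 1325, 904, 945 and 477 counts in DMSO and 206, 76, 137 and 58 with alectinib. In EA2, where the DMSO level was lowest, the counts were 205, 154, 143 and 175 in DMSO and 390, 216, 270 and 334 with alectinib. DMSO and alectinib libraries did not overlap in CPM within any line, as was so for 32.0%, 26.5% and 23.6% of all genes tested in EA1, EA2 and EA3, and the ratio had 1 sign on all 4 days in each. Mean EA1 levels were 622 ± 87.5 CPM in DMSO and 98.8 ± 12.8 CPM with drug. The corresponding EA2 means were 17.5 ± 3.96 and 35.1 ± 3.29 CPM, and the EA3 means 109 ± 21.2 and 11.5 ± 5.58 CPM. The fitted log2 fold changes were -2.57 (standard error 0.17), 1.05 (0.17) and -3.29 (0.18). The ratio was already -2.73, 1.06 and -2.70 on day 1. With alectinib, EA2 thus held more Cdh17 than EA3, the reverse of the order in DMSO. Adding the libraries labelled EA3 day 7 moved the EA3 value to -2.61.

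Aqp8 was lower with alectinib in each line and on each day. In EA3 it had 424, 661, 603 and 300 counts in DMSO and 5, 1, 1 and 1 with alectinib, a summed count per library count 275-fold lower (95% counting interval 139 to 638, counting error only). In EA1 it had 218, 179, 60 and 216 counts in DMSO and 28, 13, 16 and 12 with alectinib, 10.3-fold lower by the same ratio (8.05 to 13.4). In EA2 only 2, 3, 26 and 12 counts were seen in DMSO and 0, 0, 1 and 0 with alectinib, so that the ratio of 37.8 has an interval of 6.44 to 1529. The EA1 DMSO library of day 3, at 6.91 CPM, was the lowest of its group, whose other days lay between 20.8 and 28.5 CPM, and it gave the smallest ratio of that line (-1.93 on the log2 scale). Without day 1, the fitted log2 fold change in EA3 went from -8.11 to -9.19.

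Kcne2 was near 0 in DMSO in all lines and appeared with alectinib in EA1. Its EA1 counts were 0, 0, 0 and 1 in DMSO and 79, 267, 664 and 916 with alectinib. The level with alectinib was 7.56, 32.2, 68.6 and 76.4 CPM on days 1, 2, 3 and 5, higher on each later day. Over the 4 days the ratio of alectinib to DMSO was 1819, with a counting interval of 326 to 71880, since it rests on 1 DMSO count. In EA3 there was no count in DMSO and 4, 3, 2 and 11 counts with alectinib. Against a floor of 3 counts over the DMSO group the ratio was 6.02, which leaves out the counting error of the alectinib counts. In EA2 the gene had 1 count in DMSO and 1 with alectinib. Kcnq1, which encodes the channel that KCNE2 pairs with in parietal cells, averaged in EA1 0.0275 CPM in DMSO and 0.0718 CPM with alectinib.

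**Figure D2:**
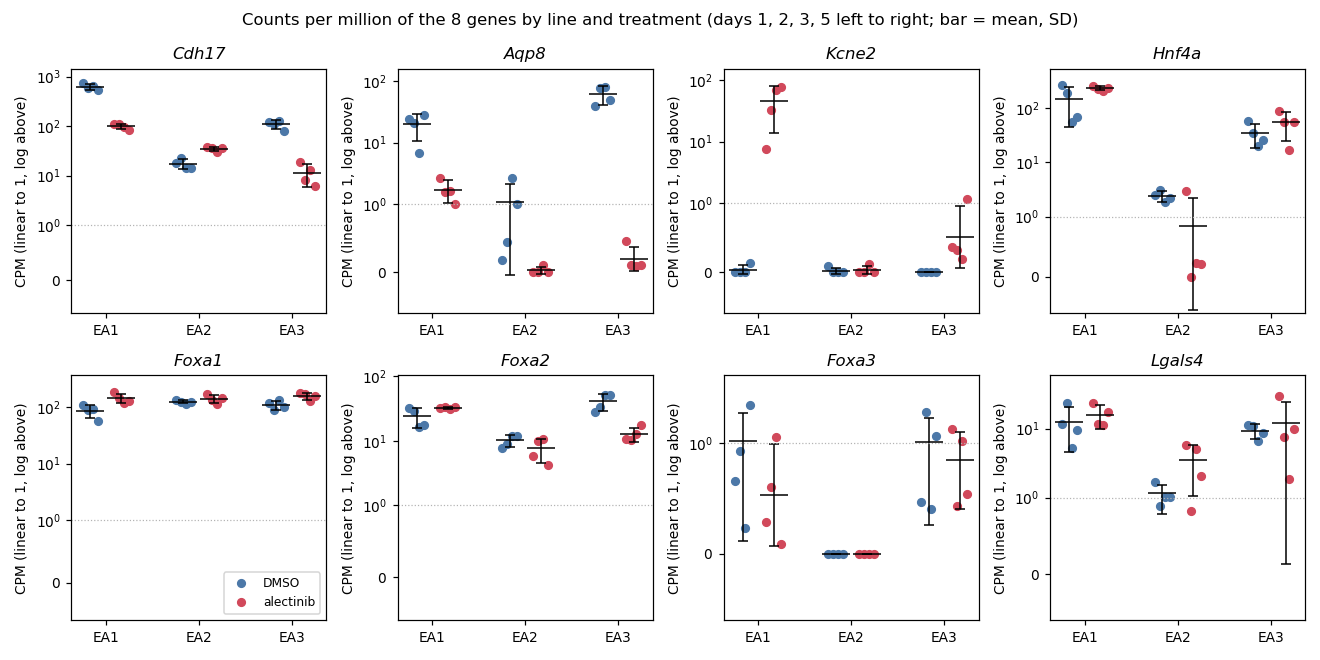
CPM of each gene in every library, by line, with DMSO in blue and alectinib in red, days 1, 2, 3 and 5 from left to right and the mean and SD of 4 days in black (axis linear up to 1, logarithmic above). Cdh17 was lower with alectinib in EA1 and EA3 and higher in EA2, Aqp8 was lower in each line, and Kcne2 averaged 46.2 CPM in EA1 alectinib against 0.0329 CPM in EA1 DMSO.

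Among the members open to a test, Foxa1 rose with alectinib in EA1 and EA3, and Foxa2 fell in EA3. In EA1, 1 of 5 tested members was higher and 0 lower. In EA2, 0 of 4 passed by the edgeR test, Foxa3 being at 0 there, and the unadjusted p-values of Hnf4a (0.0353) and Lgals4 (0.0212) were under 0.05. In EA3, 1 of 5 was higher and 1 lower. Over all 14264 genes, edgeR's test called 33.6% in EA1 (19.0% higher, 14.6% lower), 32.6% in EA3 (17.5% higher, 15.1% lower) and 24.4% in EA2. The median log2 fold change of all genes was 0.06 in EA1 and 0.07 in EA3.

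Foxa1, in EA1, had 107, 90.3, 91.4 and 56.0 CPM in DMSO and 183, 148, 120 and 129 CPM with alectinib. The 2 groups did not overlap, as was so for 32.0% of all genes tested in EA1. Foxa1 was higher on 4 of 4 days, by 0.85 log2 units in the edgeR fit (standard error 0.16, adjusted p = 0.00185). In EA3 it had 117, 88.3, 136 and 101 CPM in DMSO and 179, 170, 128 and 157 CPM with alectinib. Here the groups overlapped through day 3, and the gene was higher on 3 of 4 days, and the edgeR estimate was 0.57 (standard error 0.16, adjusted p = 0.0173). That call was lost when EA3 was fitted alone (adjusted p = 0.0732) and without day 1, 2 or 5 (0.0899, 0.198 and 0.0784). In EA2 the levels were 125 ± 7.17 CPM in DMSO and 141 ± 22.6 CPM with alectinib (0.18, interval -0.17 to 0.53). With alectinib, the 3 lines lay within 0.19 log2 units of each other (adjusted p = 0.543 between lines by the edgeR test).

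Foxa2, in EA3, had 27.8, 33.5, 51.2 and 51.3 CPM in DMSO and 10.5, 10.2, 12.7 and 17.3 CPM with alectinib. Every alectinib library was below every DMSO library, as was so, in either direction, for 23.6% of all genes tested in EA3. The edgeR estimate was -1.63 log2 units (standard error 0.24, adjusted p = 0.000292), lower on 4 of 4 days, and it stayed between -1.73 and -1.51 and past the threshold under all 12 alternatives. In EA1 the alectinib libraries held steady at 31.6, 33.9, 30.9 and 33.2 CPM, while DMSO libraries had 31.9, 29.1, 16.4 and 17.8 CPM. The groups were alike on days 1 and 2 and apart on days 3 and 5, and the effect over 4 days was 0.58 (interval 0.07 to 1.09, adjusted p = 0.0732 by the edgeR test). In EA2 the effect was -0.44 (interval -0.98 to 0.10), and -1.42 on day 5.

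Foxa3 stayed low. It had 6, 8, 2 and 18 counts in DMSO and 3, 5, 11 and 1 with alectinib in EA1, and 5, 17, 3 and 7 against 15, 4, 11 and 5 in EA3. The groups overlapped in both lines, with log2 fold changes of -0.85 (interval -3.10 to 1.40) and -0.07 (-2.21 to 2.07), intervals too wide to tell a rise from a fall at this depth.

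Hnf4a in EA1 followed the same days as Foxa2. It had 263, 190, 55.1 and 68.0 CPM in DMSO and 252, 221, 207 and 234 CPM with alectinib on days 1, 2, 3 and 5. The log2 ratio was -0.06 and 0.22 on days 1 and 2 and 1.91 and 1.78 on days 3 and 5. Over the 4 days the effect was 1.03 (interval 0.09 to 1.98, adjusted p = 0.0854 by the edgeR test), and it passed without day 1 (1.39, adjusted p = 0.0163). Without day 3 it was 0.66 (adjusted p = 0.384, edgeR) and without day 5 0.71 (0.312). In EA3 the gene had 56.0, 34.8, 19.5 and 25.98 CPM in DMSO and 87.4, 55.6, 17.1 and 54.9 CPM with alectinib (0.61, interval -0.33 to 1.54). In EA2 it had 28, 21, 18 and 26 counts in DMSO and 30, 0, 2 and 2 with alectinib. The alectinib library of day 1 thus stood with the DMSO libraries and those of the other days below them. The effect was -1.65 (interval -3.16 to -0.13, adjusted p = 0.109, edgeR), and without day 1 it was -3.64 (adjusted p = 0.00715). DESeq2 put it at -2.26 with an adjusted p of 0.0012.

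Lgals4 showed no call in any line. Its log2 ratio was below 0 on day 2 in all 3 lines (-1.04, -0.08 and -0.55) and above 0 on day 1 in all 3 (1.00, 1.67 and 1.38). In EA2, the line where it was lowest, it had 19, 6, 10 and 12 counts in DMSO and 60, 5, 45 and 19 with alectinib, overlapping on day 2, with an effect of 1.47 (interval 0.26 to 2.68, adjusted p = 0.0749 by the edgeR test). It passed in 4 alternatives, with no filter (adjusted p = 0.000883), by DESeq2 (0.0387), with EA2 fitted alone (0.0447) and without day 2 (0.0475). In EA1 the levels were 12.6 ± 7.97 and 15.9 ± 5.97 CPM (0.57, interval -0.44 to 1.58), and in EA3 9.32 ± 2.21 and 12.1 ± 11.99 CPM (-0.07, interval -1.11 to 0.96).

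**Figure D3:**
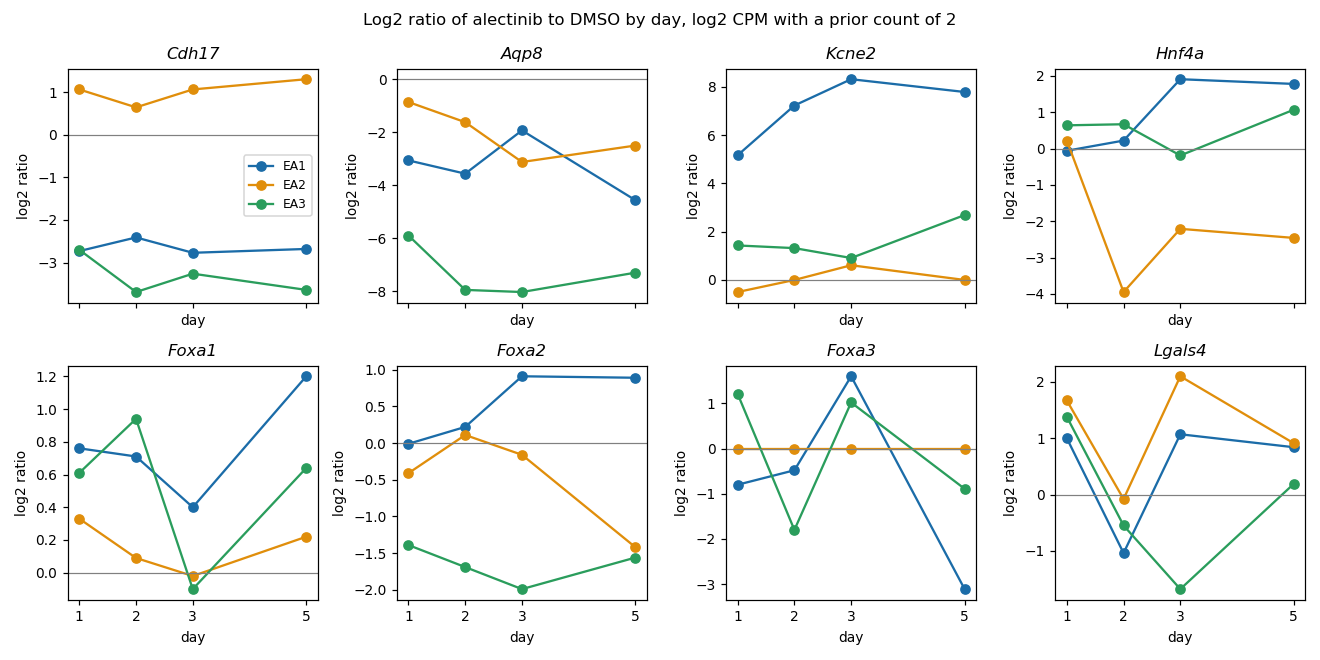
Log2 ratio of alectinib to DMSO (log2 CPM with a prior count of 2) against day of culture for each gene, with 1 line of points per cell line and 0 marking no difference. Cdh17 in EA2 stays between 0.64 and 1.30 on all 4 days while EA1 and EA3 stay at or below -2.41, and Foxa2 in EA3 stays between -1.39 and -1.99.

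The drug effect itself was compared between lines for the 5 tested members by a test with 2 degrees of freedom, which 1 of 5 passed, against 6.84% of all 14264 genes. For single pairs, the share of genes was 6.44% (EA2 minus EA1), 1.79% (EA3 minus EA1) and 2.86% (EA3 minus EA2). Foxa2 differed (adjusted p = 0.00539, edgeR). Its effect in EA3 was lower than in EA1 by 2.21 log2 units (difference -2.21, interval -2.93 to -1.48, adjusted p = 0.00545 by the edgeR test), whereas EA3 minus EA2 was -1.18 (-1.93 to -0.44, adjusted p = 0.0841). Without day 3 the 3-line call was lost (adjusted p = 0.0818). Hnf4a was 2.68 log2 units lower in EA2 than in EA1 (difference -2.68, interval -4.46 to -0.90), with an adjusted p of 0.122 over the 3 lines by the edgeR test. Without day 1 that value was 0.0157, by DESeq2 0.00203 and with no filter 8.58e-09. For Foxa1 (0.177), Lgals4 (0.351) and Foxa3 (0.914), the adjusted p of the same edgeR test missed the threshold, and the interval of EA2 minus EA1 was -1.16 to -0.16 for Foxa1 and -0.67 to 2.45 for Lgals4.

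With alectinib present, the levels of 3 of 4 tested members differed between lines, where 63.5% of 13486 genes did (48.0% for EA2 against EA1, 38.3% for EA3 against EA1 and 44.7% for EA3 against EA2). Hnf4a averaged 229 ± 19.1, 0.839 ± 1.39 and 53.7 ± 28.8 CPM in the same order, and both lower lines differed from EA1 (differences -7.89 and -2.07, adjusted p = 5.76e-06 and 0.00843, edgeR), the first being -10.28 without day 1. Foxa2 averaged 32.4 ± 1.39, 7.64 ± 3.14 and 12.7 ± 3.26 CPM. EA3, the highest line in DMSO, was now lower than EA1 (difference -1.34, interval -1.91 to -0.76, adjusted p = 0.00176 by the edgeR test). EA3 minus EA2 was 0.75 (adjusted p = 0.0393, edgeR), and 0.0562 with day as a replicate block, 0.123 without day 1 and 0.255 without day 5. Lgals4 averaged 15.9 ± 5.97, 3.45 ± 2.38 and 12.1 ± 11.99 CPM (adjusted p = 0.0478 over the lines, edgeR), a call lost without day 2 (0.129) or day 5 (0.198), with no filter (0.159) and with library size alone (0.0513). EA2 was lower than EA1 (-2.17, adjusted p = 0.0253 by the edgeR test), which was lost with no filter (0.0952), without day 2 (0.0751) and without day 5 (0.121). EA3 minus EA2 was 1.81 (adjusted p = 0.0571, edgeR), and passed without day 3 (0.0281).

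Culture time in DMSO was fitted in the 6 members that passed the filter there. Cdh17 and Aqp8 were chosen on drug ratios that these DMSO libraries entered, so their slopes are a description. No other member passed in any line by edgeR's test of the slope per doubling of days, against 1.83% of 12886 genes in EA1 and 6.10% in EA3. In EA2, 0 genes (0.00%) passed by edgeR, and 246 had an unadjusted p under 0.05. The lowest p among the members was that of Hnf4a in EA1, with a slope of -0.96 log2 units per doubling (standard error 0.23, unadjusted p = 0.00131, adjusted p = 0.0591), which passed without day 3 (adjusted p = 0.0168) and with no filter (7.9e-05). In EA1 the slopes of Foxa2 (-0.42) and Foxa1 (-0.36) and in EA3 those of Foxa2 (0.44) and Hnf4a (-0.53) reached 0.0238, 0.0497, 0.0205 and 0.0355 before adjustment in that edgeR fit. The slopes of Cdh17 were -0.16, -0.19 and -0.19 in EA1, EA2 and EA3 (intervals -0.51 to 0.18, -0.56 to 0.17 and -0.55 to 0.17).

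The genes most like each member were found by Pearson correlation of log2 CPM over the 24 libraries, which share lines, drug and depth, so that r is a description. Kcne2 was closest to Alb (r = 0.968), which encodes serum albumin and then Pirt (0.954). In EA1, Alb went from 0.0619 to 7.72 CPM and Pirt from 0.145 to 7.125 CPM. Aqp8 was closest to Synpr (0.902), Plek2 (0.901) and Krt13 (0.899), a keratin of stratified epithelium. Plek2 averaged 48.6, 3.98 and 74.9 CPM in DMSO in EA1, EA2 and EA3 and 11.96, 0.754 and 8.76 CPM with alectinib. Hnf4a was closest to Il22ra1 (0.965), the epithelial receptor chain for interleukin 22, Pear1 (0.957) and Rnf130 (0.957). Cdh17 was closest to Trim47 (0.907), Gm49336 (0.886) and Alg9 (0.876), Foxa1 to Epha4 (0.846), Zfp281 (0.838) and Dapp1 (0.804), and Foxa2 to Rassf6 (0.902), Rasip1 (0.892) and Cd9 (0.885). Foxa3 was closest to Ugdh (0.868), Sult2b1 and Hgfac (both 0.863), and Lgals4 to Rnpepl1 (0.875), Smim6 (0.871) and Rasgef1b (0.869).

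Other factors that act in gut epithelium were listed, and 10 of 15 were tested. Alectinib raised 4 and lowered 1 in EA1, raised 1 and lowered 1 in EA2, and raised 2 and lowered 2 in EA3. Of all 14264 genes, 33.6%, 24.4% and 32.6% were called in the same lines, and the counts of this list and of those that follow stand beside these shares. The list's median log2 fold change was 0.67, 0.17 and -0.27. Cdx2, the caudal factor that specifies intestine, was present in every line and moved by line. It had 140, 149, 42.3 and 61.9 CPM in EA1 DMSO and 153, 156, 194 and 154 CPM with alectinib (log2 fold change 0.99, adjusted p = 0.0415 by the edgeR test). The first 2 days were alike and the later 2 apart, on the same days as for Hnf4a and Foxa2. In EA3, Cdx2 fell from 31.3 ± 9.83 to 13.5 ± 6.18 CPM (-1.23, adjusted p = 0.017, edgeR), lower on 4 of 4 days, and its effect differed between lines (adjusted p = 0.0367, edgeR). Klf5, a factor of dividing crypt cells, changed by -0.96, -0.97 and -1.28 log2 units in the 3 lines, all past the edgeR threshold. Elf3 rose in EA1 (1.09). Hnf4g, called in EA3, was near 0 there, at 0.0699 CPM in DMSO and 0.622 CPM with alectinib. Cdx1 was at 0 in all 24 libraries.

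Of 27 genes of differentiated intestine, 9 were tested, and 9 never exceeded 3 counts in a library, Apoa4 and Sis among them. Fabp1, a fatty acid binding protein of liver and enterocytes, did not pass the filter and averaged 0.0565 CPM in EA1 DMSO and 6.11 ± 4.85 CPM in EA1 alectinib, with 0.574 to 11.3 CPM per library. EA1 had 3 higher and 1 lower with alectinib, and EA2 and EA3 each had 0 higher and 2 lower. Anpep, an aminopeptidase of the brush border, rose in EA1 from 0.377 ± 0.309 to 78.2 ± 14.5 CPM (7.76 log2 units, adjusted p = 2.02e-05 by the edgeR test), and its effect differed between lines (adjusted p = 0.00206, edgeR). Vil1, which bundles actin in microvilli, averaged 0.261 CPM in EA1 DMSO and 2.56 CPM in EA1 alectinib (4.69, 1.45, 1.86 and 2.25 CPM by day). It passed the filter through EA1 alectinib, so its call, counted among the 3 higher, is a description and has no p-value here. The gene Krt20, a keratin of surface enterocytes, was lower in EA2 (-2.81) and EA3 (-0.87), both past the threshold. Muc2, the goblet cell mucin, was called lower in EA1 (-2.31) and EA3 (-2.62). Its DMSO level in EA3 was 0, 0.598, 1.07 and 12.9 CPM on days 1, 2, 3 and 5 against 0, 0.108, 0.283 and 1.29 CPM with alectinib, so that the means rest on day 5.

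Of 23 gastric genes in the table, 12 were tested and 10 never exceeded 3 counts, among them the proton pump genes Atp4a and Atp4b and the gastrokines. With alectinib, 2 were higher and 3 lower in EA1, 1 higher and 3 lower in EA2, and 2 higher and 5 lower in EA3, with medians of 0.12, -0.48 and -1.06. Psca, a surface antigen of stomach and prostate, went from 3.77 ± 0.177 to 91.4 ± 6.43 CPM in EA2 (4.62 log2 units, adjusted p = 3.23e-05 by the edgeR test), and was also called higher in EA3 (2.88) and in EA1, where it was near 0 (0.0659 CPM in DMSO and 0.862 CPM with alectinib). In EA3 it was higher on 3 of 4 days, with 1.03, 0.718, 0.400 and 2.01 CPM in DMSO and 26.04, 8.94, 2.07 and 1.501 CPM with alectinib. Ctse, which encodes cathepsin E, rose in EA1 from 0.916 ± 0.400 to 22.5 ± 13.9 CPM (4.53, adjusted p = 9.46e-06 by the edgeR test) and in EA3 (1.66). Aqp5, a water channel of glands, was lower in EA2 (-1.36) and EA3 (-1.87), and Dmbt1 in EA1 (-2.34) and EA3 (-4.05). Muc1 was lower in EA1 (-1.89, from 2.39 to 0.562 CPM) and EA2 (-3.04, from 6.69 to 0.766 CPM). In EA3, where Muc1 was highest (176 ± 76.0 CPM in DMSO and 140 ± 54.9 CPM with alectinib), it was not called. Sox2, called lower in EA3, had 0.559, 0.359, 5.87 and 3.86 CPM in DMSO and 0.0911, 0.216, 0.0943 and 0 CPM with alectinib. Sox2 was higher in EA1 and EA2 and was not called there. It averaged 95.45 CPM in EA2 DMSO and 46.41 CPM in EA2 alectinib. The EA1 means were 25.78 CPM in DMSO (11.6 to 64.68 CPM per library) and 10.45 CPM with alectinib. Of liver genes, 5 of 17 were tested. Alectinib raised 4 of them in EA1, 2 in EA3 and 1 in EA2 and lowered 0. The counts of EA1 and EA3 include Alb, whose rise is a description only, for the reason given below. Apob, the structural protein of lipoproteins, rose in all 3 lines (2.71, 2.75 and 2.26). Alb was at 0 or near 0 in all DMSO groups and in EA2. In EA1 alectinib it had 2.68, 10.7, 7.64 and 9.84 CPM against 0, 0.116, 0 and 0.132 CPM in DMSO, and it passed the filter through that group. In EA3 alectinib it had 0.0911, 0.108, 0 and 2.465 CPM, so that its level there rests on day 5.

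**Figure D4:**
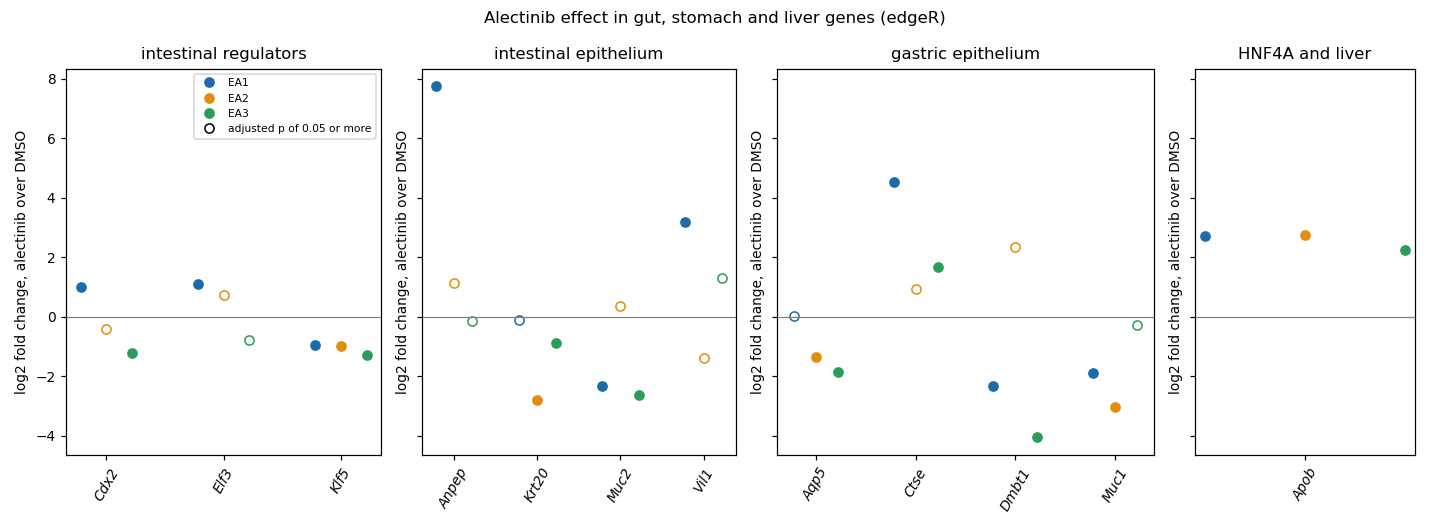
Log2 fold change of alectinib over DMSO for listed gut, stomach and liver genes in EA1 (blue), EA2 (orange) and EA3 (green), filled where the adjusted p of edgeR's test is under 0.05. Cdx2 lies at 0.99 in EA1 and -1.23 in EA3, and Klf5 lies between -1.28 and -0.96 in the 3 lines.

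The direction of called changes differed between the gene families of Cdh17, Aqp8, Kcne2 and Lgals4. Of 7 tested cadherins, 2 rose in EA1, 3 rose and 1 fell in EA2, and 3 rose in EA3. Cdh2, which encodes N-cadherin, rose in each line (1.01, 2.37 and 2.01 log2 units), as did Cdh3 (2.88, 3.73 and 2.28). In EA1, Cdh3 was near 0, at 0.0868 CPM in DMSO and 0.656 CPM with alectinib. Cdh1 rose in EA2 (1.55) and EA3 (0.65). Of 4 tested aquaporins other than Aqp8, 0 were called in EA1, and 3 fell in each of EA2 and EA3, among them Aqp5, Aqp11 (-1.94 and -1.29), Aqp1 in EA2 (1.299 to 0.136 CPM) and Aqp3 in EA3 (-2.33). Of 4 tested genes of the KCNE and KCNQ families, 0 were called in EA1, and Kcne3 was lower in EA2 (1.31 ± 0.324 CPM in DMSO, listed at 0 with alectinib) and EA3 (-3.22), as was Kcnq1 in EA3 (-2.76). Of 6 tested galectins, 3 rose in each of EA1 and EA2 and 1 in EA3, and Lgals9 rose in each line (1.78, 1.31 and 1.79).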

How the data were processed

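RNA was sequenced from EA1, EA2 and EA3 cultures with a stranded TruSeq mRNA kit and paired reads. The authors checked reads with FastQC, trimmed adapters with bbduk, aligned them with STAR (mm10) and deposited the raw gene counts that STAR itself tallied. The submitters' processing notes also name edgeR. The annotation release and the strand column of the counter are not given in the sources used here. Of 55415 table lines, 24 hold a date number in place of a symbol (0.129% to 0.201% of counts) and were dropped. The treatment text names other days than the sample labels, and the sample labels were used.

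Counts were analysed with edgeR 4.0.16 in R 4.3.3 (TMM scaling, filterByExpr by line and treatment, robust quasi-likelihood test, Benjamini-Hochberg over all genes, threshold 0.05) and DESeq2 1.42.0 as an alternative. CPM uses TMM library sizes. A single model over the 24 libraries of days 1 to 5 had 12 line-by-day blocks and an alectinib effect per line. Levels and DMSO slopes over log2 days were fitted on 12 libraries each. The pairing of DMSO and alectinib comes from the shared line and day in the labels. Deviations of paired libraries from their group means correlated between -0.300 and 0.549. Ratios of members against groups near 0 are given with exact counting intervals, and 3 counts were taken as the floor, which covers counting error only. Fits were tested on simulated counts.

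The members and gene lists were chosen with earlier results of these data known. Cdh17, Aqp8 and Kcne2 were chosen on the alectinib contrast and have no p-value there. The text names all 8 members, for each up to 3 of the most correlated genes, and from each list up to 2 genes per line with the largest called change of 1 sign on 4 days and the 2 highest in DMSO. Marker genes named for being near 0 or present were chosen after their values were seen. Promoters come from RefSeq (GRCm38.p6). The TATA box was added to the motifs after the data were seen. Alternatives were DESeq2, its size factors, library size alone, no filter, at least 10 counts in every library, no replicate block or a day block, lines fitted alone, all 26 libraries, days in place of log2 days, and each day left out. Some genes and labels that this rule would name are not reported here.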

Additional observations from a re-analysis of the deposited data

Results flagged for a closer look

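In 7 of 48 groups of 4 days checked for the members, 1 library stood apart by Dixon's criterion, and chance alone flags about 1 in 20. These were the highest libraries of Aqp8 in EA3 alectinib (0.455 CPM, day 1), of Hnf4a in EA2 alectinib (2.91 CPM, day 1) and of Lgals4 in EA2 DMSO (1.68 CPM, day 1). In the other 4, 1 library held a single count and the rest none, namely Kcne2 in EA1 DMSO (0.132 CPM), EA2 DMSO (0.0883 CPM) and EA2 alectinib (0.112 CPM) and Aqp8 in EA2 alectinib (0.112 CPM). A lone count always meets the criterion, so the rate of 1 in 20 does not apply to such groups.

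The alectinib effect differed between lines for Foxa2 (adjusted p = 0.00539, edgeR). For Cdh17 all 4 days moved down in EA1 and EA3 (log2 fold changes -2.57 and -3.29) and up in EA2 (1.05), and that difference was not tested, since the gene was picked for it. Of 49 genes named from the lists, largely for their alectinib changes, the effect differed by line in the same edgeR test for 14 (6.84% of all genes passed), and the way they were named bears on that share. These were the brush border genes Anpep (adjusted p = 0.00206) and Cdhr2 (0.0336), the intestinal genes Cdx2 (0.0367) and Krt20 (0.0224), the gastric genes Ctse (0.00988) and Muc1 (0.0107), the aquaporins Aqp3 (0.041) and Aqp5 (0.0239), the cadherins Cdh1 (0.0336) and Cdh2 (0.0404), the epithelial markers Epcam (0.0302) and Krt8 (0.0336), and the fibroblast markers Col3a1 (0.0171) and Dcn (0.00115).

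Kcne2 was seen at 0.423 CPM (5 counts) in the library labelled EA3 alectinib day 7, which entered no fit but the alternative with all 26 libraries, and at 0 counts in its DMSO partner.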

How the results depend on the processing

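For the tested members and the DMSO slopes of Cdh17 and Aqp8, 599 values under alternatives were compared with those reported. Of these, 542 kept direction and side of the threshold, 18 lost a call, 21 gained one and 18 changed sign, and in 0 of these 18 did either value pass the threshold. The calls that moved are given beside each result or here. With library size alone the Foxa1 level in DMSO, EA2 minus EA1, was called (adjusted p = 0.022, edgeR). With no filter the adjusted p of the Hnf4a effect by edgeR was 5.5e-05 (EA1), 0.000176 (EA2) and 0.0432 (EA3). The cause of these shifts was not tested.

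The sign changes were in effects, levels or slopes that missed the threshold. With library size alone, the alectinib effect in EA3 was 0.04 for Foxa3 and 0.04 for Lgals4 (both -0.07 as reported), and with days in place of log2 days the Aqp8 slope in EA1 was 0.05. With 1 day left out, the alectinib effect ranged from -1.92 to 0.15 for Foxa3 in EA1, from -0.69 to 0.62 for Foxa3 in EA3 and from -0.64 to 0.39 for Lgals4 in EA3, and the Lgals4 level in DMSO, EA3 minus EA1, from -0.53 to 0.03. The DMSO slopes then ranged from -0.33 to 0.02 (Cdh17, EA3), -0.96 to 0.39 (Aqp8, EA1), -0.49 to 0.72 (Aqp8, EA3), -0.16 to 0.08 (Foxa1, EA2), -0.05 to 0.13 (Foxa1, EA3) and -0.55 to 0.18 (Lgals4, EA2).

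The number of genes whose alectinib effect differed between lines was 976, and was 1963 by DESeq2, 2698 with no filter, 398 with all 26 libraries and 211 to 792 with 1 day left out. The DMSO slope was called in 236 genes in EA1 (61 with days in place of log2 days, 824 with no filter, 0 to 764 without 1 day), in 0 in EA2 (25 with no filter, 0 to 2 without 1 day) and in 786 in EA3 (329, 1496 and 0 to 1737). Leaving out 1 day, which also removes libraries, took the alectinib calls from 4791 to 2796-4088 in EA1, from 3475 to 2142-2654 in EA2 and from 4650 to 2836-3889 in EA3. It took the calls between lines in DMSO from 5122 to 3292-4318 and with alectinib from 8568 to 6878-7506.

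Without the replicate block of line and day, the alectinib calls were 4426, 2881 and 4166 in the 3 lines and the line difference 807. With day as a replicate block, 7167 genes differed between lines in DMSO and 8525 with alectinib. Among the tested members, adding or dropping the block changed the Foxa1 call between lines in DMSO (adjusted p = 0.0383, and 0.0204 for EA2 against EA1) and the Foxa2 call between EA3 and EA2 with alectinib (0.0562), and no other, and without it the sign of the Lgals4 effect in EA3 changed (0.43).

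Each value rests on 1 library per line, treatment and day. With at most 18 counts per library for Foxa3, 11 for Kcne2 in EA3 and 26 for Aqp8 in EA2, intervals are wide and small differences were not detectable at this depth.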

Other observations

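In the libraries labelled EA3 day 7, Cdh17 had 10.9 CPM in DMSO and 37.7 CPM with alectinib, Aqp8 0.252 and 0.0846 CPM, Hnf4a 0.629 and 0.169 CPM, Foxa1 80.5 and 134 CPM, Foxa2 9.69 and 2.88 CPM, and Lgals4 2.52 and 3.55 CPM. Foxa3 was at 0 in both, and Kcne2 was at 0 in DMSO and 0.423 CPM with alectinib. In the EA3 libraries of days 1 to 5, DMSO values of Cdh17 were 79.9 to 126 CPM and those of Aqp8 39.5 to 80.4 CPM, while Kcne2 with alectinib had 0.1885 to 1.18 CPM.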
